A study of Mus musculus with 18 samples.

Results

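The comparison described here asks which genes respond to loss of progranulin differently in 2 states of the macrophage. For each gene it is the effect of the knockout in M1 macrophages minus its effect in M2 macrophages, (PGRN knockout M1 minus WT M1) minus (PGRN knockout M2 minus WT M2), and it uses 12 of the 18 libraries of the series. The groups are PGRN knockout M1, WT M1, PGRN knockout M2 and WT M2, with 3 libraries each. All are bone marrow-derived macrophages of C57BL/6 mice, grown from marrow for 7 days in medium with 10% FBS and 10 ng/ml M-CSF. The M1 groups of both genotypes then received LPS at 100 ng/ml together with interferon gamma at 20 ng/ml for 18 h, and the M2 groups of both genotypes IL-4 at 20 ng/ml for 18 h. How the Grn gene was disrupted, the age of the mice and whether the libraries of a group came from separate mice are not given in the sources used here. There was no unstimulated group, so every effect is one within a stimulated state. The other 6 libraries came from cells with a myeloid knockout of 14-3-3ε. They are used only for values set side by side and in an alternative fit of 6 groups.

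Progranulin, the product of Grn, is a secreted glycoprotein that is also delivered to lysosomes, where it is processed into granulins that support the acid hydrolases. Its loss is known for lysosomal storage and for altered inflammatory responses of macrophages and microglia. LPS with interferon gamma drives macrophages to the inflammatory M1 state, and IL-4, through STAT6, to the M2 state. In the accounts below a positive difference means that the effect of the knockout lay higher in M1 than in M2, and a negative difference that it lay lower in M1 than in M2. Levels are normalized counts, differences are log2 values ± standard error from a fit of 3 libraries per group, and a gene is called where its Benjamini-Hochberg adjusted p in limma is under 0.05.

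Depth ran from 5.16 to 58.8 M recovered reads per library, with the 3 WT M1 libraries at 5.16, 14.5 and 7.40 M. WT M1 was also the group whose libraries agreed least, with a median standard deviation over genes of 0.220 log2 units, against 0.096 in PGRN knockout M1, 0.087 in PGRN knockout M2 and 0.134 in WT M2. WT M2 replicate 3 gave 14.8% of its reads to 5 genes that resemble ribosomal RNA, and WT M1 replicate 2 gave them 1.88%, where other libraries gave at most 0.224%. The labelled states matched their markers: 29 M1 marker genes summed to 17901 to 20842 CPM in PGRN knockout M1 and 19413 to 28397 CPM in WT M1, against 307 to 354 CPM in PGRN knockout M2 and 248 to 276 CPM in WT M2. The 36 M2 markers summed to 12795 to 12843 CPM in PGRN knockout M2 and 12009 to 15095 CPM in WT M2, against 3026 to 3533 CPM in PGRN knockout M1 and 3065 to 3718 CPM in WT M1. The 13 stromal markers, among them collagens, summed to 14463 to 16761 CPM in PGRN knockout M1 and 18998 to 31914 CPM in WT M1, and to 14346 to 18711 CPM in PGRN knockout M2 and 20794 to 32073 CPM in WT M2. Of 12 stromal markers tested, 7 fell with the knockout in M1 and 7 in M2, none had a called difference between the 2 states in limma, also with voom weights (1 at an unadjusted p under 0.05, and 1 called without WT M1 replicate 1), and in bulk RNA fewer stromal cells and less RNA per stromal cell cannot be told apart. Over the fits without a library the stromal markers that fell numbered 3 to 11 in M1 and 4 to 9 in M2. Of all 11371 genes tested, 1580 fell in M1 and 1423 in M2.

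Grn is the check of the labels. Levels in PGRN knockout M1 were 497, 212 and 231 normalized counts, against 91070, 81989 and 91739 in WT M1. PGRN knockout M2 had 24.4, 23.9 and 32.2, against 30086, 29365 and 34556 in WT M2. The knockout libraries lie far below WT in both states, and the residue was higher in knockout M1 than in knockout M2. The fall was -8.24 ± 0.26 in M1 and -10.14 ± 0.26 in M2, and the difference between the states of 1.90 ± 0.37 was called (adjusted p = 0.0325) but passed in only 3 of the 12 fits that each leave out 1 library, with an adjusted p of up to 0.0839.

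Many genes that responded to the knockout did so in the same direction in both states. Of 11371 genes tested, 4073 changed in M1, a share of 35.8%, with 2493 higher and 1580 lower in the knockout. In M2 3579 changed, a share of 31.5%, with 2156 higher and 1423 lower. Both counts use a spread pooled over the 4 groups, which differ in spread as given above. A fit of only the 2 groups compared called 2403 genes in M1 and 4904 in M2, so the order of the states was reversed. In the pooled fit both effects passed with the same sign in 2287 genes. The difference between the effects was called for 198 genes, or 1.74% of those tested, and at an unadjusted p under 0.05 for 1688. It was positive for 73 genes (0.642%) and negative for 125 (1.10%), and exceeded a factor of 2 for 26 of the positive and 52 of the negative genes. Over all genes tested the median difference was 0.02, with a median effect of 0.07 in M1 and 0.04 in M2.

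The 198 calls divide by the shape of the response. Whether an effect was called within a state rests on the pooled spread, and the shapes were not recounted with fits of 2 groups. Among the positive genes 28 rose in M1 without a called effect in M2, 10 rose in both states and more in M1, 21 fell in M2 without a called effect in M1, and 2 fell in both and less in M1. Among the negative genes 48 fell in M1 without a called effect in M2, 34 rose in M2 without a called effect in M1, 18 rose in both and more in M2, and 4 fell in both and more in M1. The remaining 33 genes, 0.290% of those tested, moved in opposite directions, 12 of them up in M1 and down in M2 and 21 down in M1 and up in M2.

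These counts rest on few libraries. Without replicates 1, 2 and 3 in turn the 198 calls became 45, 166 and 34 for PGRN knockout M1, 551, 118 and 128 for WT M1, 56, 58 and 32 for PGRN knockout M2, and 102, 64 and 67 for WT M2. The 33 genes with opposite directions became 11, 30 and 7, then 87, 26 and 27, then 11, 11 and 7, and then 20, 14 and 15 in the same order. Without WT M1 replicate 2 and WT M2 replicate 3 together, which hold the most reads like ribosomal RNA, 63 differences were called. With a covariate from the stromal markers, an alternative chosen after seeing the data, 358 were called, among them 197 of the 198, and 9 genes moved in opposite directions. Every knockout library had a lower stromal sum than every WT library. This covariate therefore overlaps with genotype, and within-state counts under it, here and below, cannot separate the 2. The 4073 genes changed in M1 became 2636 without PGRN knockout M1 replicate 1 and 2644 without its replicate 3. The 3579 changed in M2 became 2325 without PGRN knockout M2 replicate 1, 2251 without its replicate 3 and 2321 without WT M2 replicate 1. Called in the full fit and in each of the 12 fits without a library were 26 genes, 11 positive and 15 negative. Of the called genes described below, those outside the 26 are given with the number of such fits they passed. Ctsd, Hsp90b1, Pdia6, Atf4 and Arg1 had no called difference and were chosen after their values were seen.

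**Figure D1:**
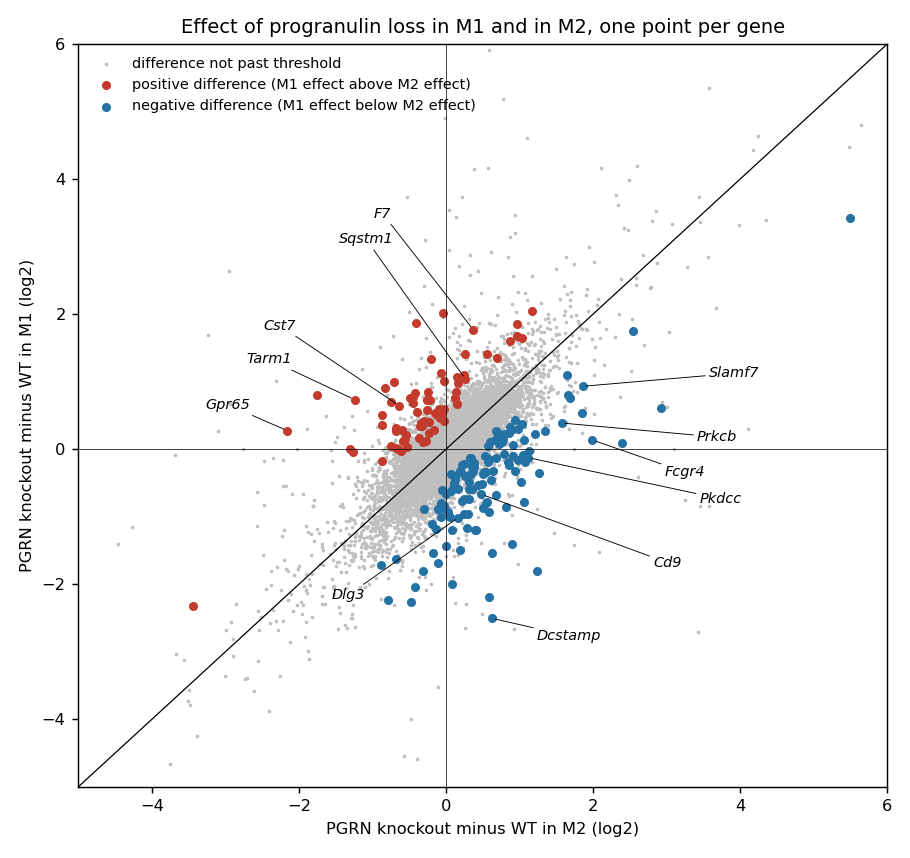
Each point is 1 of the tested genes, with the log2 effect of the PGRN knockout in M2 on the horizontal axis and in M1 on the vertical axis, and the diagonal marks equal effects. Red points are the genes called with a positive difference and blue points those called with a negative one; Gpr65 lies at -2.16 in M2 and 0.28 in M1, and Dcstamp at 0.62 in M2 and -2.50 in M1. Grn is not drawn, and 15 further genes lie outside the axes.

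Gpr65, Tarm1, Fcgr4 and Slamf7 encode surface receptors and lie at chr12:98268635-98276644, chr7:3486500-3502624, chr1:171018920-171029761 and chr1:171632403-171653035 on GRCm38 (GENCODE M21). Gpr65, a receptor that senses extracellular protons, was 4.48-fold lower with the knockout in M2 and not called in M1. It had 1907, 1559 and 2124 normalized counts in PGRN knockout M1, against 1480, 1564 and 1536 in WT M1. In M2 there were 247, 246 and 299 in the knockout, against 1158, 1173 and 1210 in WT. The M1 libraries of the 2 genotypes overlap, and the M2 libraries are far apart. The M2 effect was -2.16 ± 0.11 (adjusted p = 7.46e-07), the M1 effect of 0.28 ± 0.11 missed the threshold (adjusted p = 0.075), and the difference of 2.44 ± 0.16 (limma adjusted p = 6.67e-05) held between 2.34 and 2.56 in the 23 alternative fits. Read the other way, M1 exceeded M2 by 2.81 ± 0.11 in knockout cells and by 0.37 ± 0.11 in WT cells.

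Tarm1, an activating receptor of myeloid cells, moved in opposite directions. Its levels were 634, 593 and 591 in PGRN knockout M1, against 406, 341 and 347 in WT M1. In M2 they were 69.3, 72.8 and 76.6 in the knockout, against 204, 178 and 145 in WT. All knockout libraries lie above WT in M1 and below WT in M2. Its M1 rise was 0.73 ± 0.13 (adjusted p = 0.00153), its M2 effect -1.24 ± 0.13 (adjusted p = 6.86e-05), a difference of 1.98 ± 0.18 (adjusted p = 0.000762).

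Fcgr4, an activating receptor for IgG, was 3.98-fold higher with the knockout in M2, the state in which WT cells had little of it. Its levels were 11741, 13653 and 11549 in PGRN knockout M1, against 12392, 10497 and 10756 in WT M1. In M2 the knockout had 1167, 1337 and 1174, against 355, 275 and 296 in WT. The M1 libraries overlap, and every knockout M2 library exceeds every WT M2 library. The rise in M2 was 1.99 ± 0.11 (adjusted p = 1.09e-06), the M1 effect of 0.13 ± 0.11 did not pass (adjusted p = 0.365), and the difference was -1.86 ± 0.16 (adjusted p = 0.000588). Of the 5 Fc gamma receptor genes tested, a list added after values were seen, Fcgr4 had the 1 called difference, and 2 were called with voom weights. As reported the share was 20%, against 1.74% over all genes tested, which is no test for a list added in this way.

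Slamf7 and Ms4a7 are also surface proteins of macrophages, a SLAM-family receptor and a member of the MS4A tetraspan family, and both stood higher in M1 than in M2. Slamf7 had 8216, 9071 and 8072 in PGRN knockout M1, against 4241, 4640 and 4413 in WT M1. Its M2 levels were 1376, 1343 and 1430 in the knockout, against 355, 359 and 434 in WT. It rose in both states, by 0.93 ± 0.09 (adjusted p = 3.4e-05) in M1 and by 1.86 ± 0.09 (adjusted p = 4.55e-07) in M2, and the difference was -0.93 ± 0.12 (adjusted p = 0.00687). Ms4a7 had 21277, 21370 and 21667 in PGRN knockout M1, against 19826, 16120 and 17885 in WT M1. In PGRN knockout M2 it had 4191, 4456 and 4518, against 1736, 1587 and 1877 in WT. Its rise in M2 of 1.34 ± 0.09 passed (adjusted p = 4.7e-06), its M1 effect of 0.26 ± 0.09 lost its call under both other scalings (adjusted p = 0.0401 as reported, 0.161 by library totals and 0.0958 by upper quartile), and the difference was -1.08 ± 0.13 (adjusted p = 0.00361).

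**Figure D2:**
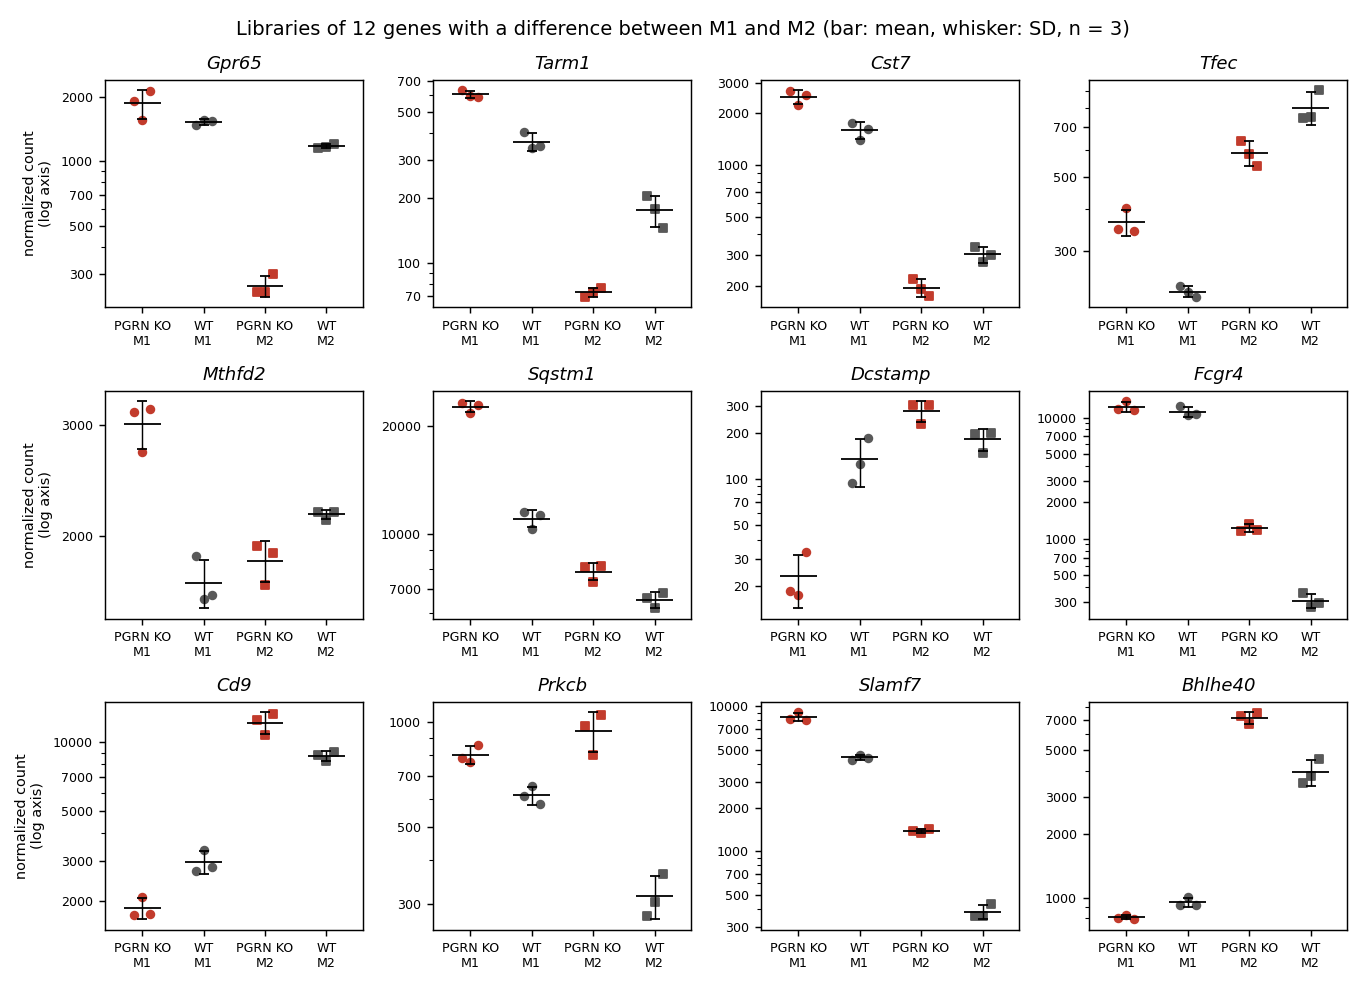
Normalized counts on log axes for 12 genes with a called difference, with 1 point per library, the mean as a bar and the SD as a whisker (n = 3); PGRN knockout is red, WT grey, M1 circles and M2 squares. For Gpr65 and Fcgr4 the genotypes overlap in M1 and separate in M2, while for Tarm1, Cst7 and Tfec the knockout lies above WT in M1 and below it in M2.

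Dcstamp (chr15:39745930-39760938 on GRCm38), which is needed for the fusion of macrophages into osteoclasts and giant cells, had the most negative difference of the genes with a stable call. It had 18.4, 17.4 and 33 normalized counts in PGRN knockout M1, against 93.6, 125 and 186 in WT M1. The M2 libraries held 305, 229 and 303 in the knockout, against 197, 147 and 199 in WT. The knockout lies below WT in M1 without overlap and above it in M2. The PGRN knockout M1 libraries held 87 reads of Dcstamp in all, with 7 in the lowest. The fall in M1 was -2.50 ± 0.29 (adjusted p = 0.000115), the M2 effect of 0.62 ± 0.29 did not pass (adjusted p = 0.12), and the difference was -3.13 ± 0.41 (adjusted p = 0.00674). Ocstamp, a second gene of cell fusion, had 14.3, 7.47 and 27.9 in PGRN knockout M1, against 53.5, 66.1 and 97.5 in WT M1, and 955, 868 and 1008 in PGRN knockout M2, against 785, 544 and 579 in WT M2. Its difference of -2.78 ± 0.52 was called (adjusted p = 0.0278) but in only 4 of the 12 fits without a library (adjusted p up to 0.0869). The Ocstamp level of 7.47 in PGRN knockout M1 replicate 2 equals 3 reads, so its M1 effect rests on few reads. Of 13 tested genes of osteoclasts and cell fusion, a list added after values were seen, Dcstamp and Ocstamp were the 2 called. That is a share of 15.4%, against 1.74% over all genes tested. For a list added after values were seen, such a share is no test.

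Most lysosomal genes rose in both states, and the median differences of the 2 lysosomal lists were near 0. Of 40 hydrolases, 30 rose in M1 and 30 in M2, and 1 fell in each, where 2493 and 2156 of all 11371 genes tested rose. Of the 40, 23 rose in M1 and 20 in M2 with the stromal covariate, which overlaps with genotype as given above. Without PGRN knockout M2 replicate 1 or 3, 25 rose in M2. None had a called difference in limma, as reported, with voom weights or in any other alternative fit, none had an unadjusted p under 0.05, and the median difference was 0.03, beside 0.02 over all genes. Ctsd, which encodes the protease cathepsin D, had 299977, 260293 and 298436 in PGRN knockout M1, against 145013, 124229 and 163780 in WT M1. For M2 the levels were 311627, 232850 and 310551 in the knockout, against 126241, 107984 and 144434 in WT. Its rise was 0.99 ± 0.15 in M1 and 1.17 ± 0.15 in M2, a difference of -0.18 ± 0.22 (adjusted p = 0.782). It was chosen for its role after its values were seen. Of 38 genes of the lysosomal membrane, the proton pump and the TFEB circuit, 28 rose and 1 fell in M1, and 27 rose and none fell in M2. With the stromal covariate 20 rose and 2 fell in M1, and 21 rose in M2. The median difference of these 38 was 0.05, and 7 of them had a difference at an unadjusted p under 0.05 in limma. As reported, 1 had a called difference, a share of 2.63%, against 1.74% over all genes tested.

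That gene was Sqstm1 (chr11:50199366-50210827 on GRCm38), which encodes p62, an autophagy receptor that is itself degraded in lysosomes. It had 23305, 21758 and 23025 in PGRN knockout M1, against 11514, 10343 and 11271 in WT M1. In M2 there were 8064, 7351 and 8129 in the knockout, against 6607, 6193 and 6828 in WT. The M1 groups are 2.06-fold apart, and the M2 groups lie closer but do not overlap either. It rose by 1.04 ± 0.08 in M1 (adjusted p = 7.33e-06), the M2 effect was 0.26 ± 0.08 with a call lost under both other scalings (adjusted p = 0.0235 as reported, 0.0677 by library totals and 0.0979 by upper quartile), and the difference was 0.78 ± 0.11 (adjusted p = 0.00783).

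Cst7 and Tfec have ties to the same compartment: Cst7 encodes cystatin F, an inhibitor of lysosomal cysteine proteases, and Tfec a macrophage transcription factor of the family of TFEB. Cst7 had 2686, 2236 and 2541 in PGRN knockout M1, against 1761, 1396 and 1621 in WT M1. Its M2 levels were 219, 192 and 173 in the knockout, against 337, 273 and 299 in WT. It rose by 0.65 ± 0.12 in M1 and fell by 0.64 ± 0.12 on the log2 scale in M2, without overlap in either state, and the difference was 1.28 ± 0.17 (adjusted p = 0.00718). Tfec had 350, 403 and 344 in PGRN knockout M1, against 236, 227 and 219 in WT M1. In PGRN knockout M2 it had 637, 585 and 538, against 748, 752 and 904 in WT. Its knockout libraries are again above WT in M1 and below WT in M2, with a difference of 1.13 ± 0.15 (adjusted p = 0.00687) that lost its call in libraries thinned to equal depth (adjusted p = 0.0956).

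Lipid genes gave 1 call in each direction among 29 genes of LXR targets, lipid handling and lipid-associated macrophages, of which 19 rose in M1 and 22 in M2. The share called was 6.9%, against 1.74% over all genes tested, of which 2493 of 11371 rose in M1 and 2156 in M2. Cd9, a tetraspanin of the plasma membrane, had 1747, 2097 and 1758 in PGRN knockout M1, against 2729, 3366 and 2822 in WT M1. The M2 libraries held 12504, 10735 and 13311 in the knockout, against 8765, 8251 and 9064 in WT. It fell in M1 by 0.67 ± 0.11 on the log2 scale (adjusted p = 0.001) and rose in M2 by 0.48 ± 0.11 (adjusted p = 0.00756), a difference of -1.15 ± 0.16 (adjusted p = 0.00718). The positive call, Abcg1, a cholesterol efflux transporter, passed in 2 of the 12 fits without a library: it rose by 1.65 ± 0.09 in M1 and by 1.04 ± 0.09 in M2, and the difference was 0.61 ± 0.13 (adjusted p = 0.0409, and up to 0.115 without a library). Of 24 genes of cholesterol synthesis and uptake, 18 rose in M1 and 19 in M2, and none had a called difference in limma, also with voom weights; 1 had an unadjusted p under 0.05, and at most 1 was called in the fits without a library.

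The integrated stress response gave the largest share of calls among the 29 lists written for the comparison. ATF4 is the transcription factor through which amino acid shortage and other stresses raise amino acid transporters, enzymes of serine and one-carbon metabolism, and the synthetases that load amino acids on tRNA. Of 36 genes of ATF4 and the unfolded protein response, 9 had a called positive difference and none a called negative one, a share of 25% called, against 0.642% positive and 1.10% negative over all genes tested. With the knockout 11 rose and 8 fell in M1, and 3 rose and 18 fell in M2. Over all 11371 genes tested, 2493 rose and 1580 fell in M1, and 2156 rose and 1423 fell in M2. The median difference of the list was 0.30, against 0.02 over all genes, and its median effect 0.17 in M1 and -0.28 in M2. Over the 12 fits without a library, the number of positive calls in the list ran from 1 (without PGRN knockout M1 replicate 3) to 16 (without WT M1 replicate 1). It was 2 without PGRN knockout M1 replicate 1 and 4 without WT M1 replicate 3; without replicates 1, 2 and 3 in turn it was 3, 3 and 2 for PGRN knockout M2 and 4, 3 and 5 for WT M2. It was 5 without WT M1 replicate 2 and WT M2 replicate 3 together, 2 with scaling by library totals, and 4 with the lower filter, with no filter or in thinned libraries. The 18 members that fell in M2 became 11 without PGRN knockout M2 replicate 2 and 12 without its replicate 3.

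The promoters of 4 called genes are shown because they hold the letters TGATGNAA, a core of the element that ATF4 binds in its partnership with C/EBP factors, in one orientation or the other. Each window is RefSeq sequence of GRCm38.p6 on the strand of the gene, from 250 bases before to 50 after the start, and capitals mark the match. The windows are chr8:111033592-111033891 on the plus strand for Aars, chr6:55037751-55038050 on the plus strand for Gars, chr2:119350992-119351291 on the plus strand for Chac1 and chr2:152344011-152344310 on the minus strand for Trib3.
Aars: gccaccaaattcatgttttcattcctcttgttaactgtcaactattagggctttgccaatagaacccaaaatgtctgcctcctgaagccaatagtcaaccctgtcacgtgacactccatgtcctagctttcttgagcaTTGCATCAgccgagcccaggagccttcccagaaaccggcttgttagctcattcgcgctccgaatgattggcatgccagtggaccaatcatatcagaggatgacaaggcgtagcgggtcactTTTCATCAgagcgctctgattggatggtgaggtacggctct
Gars: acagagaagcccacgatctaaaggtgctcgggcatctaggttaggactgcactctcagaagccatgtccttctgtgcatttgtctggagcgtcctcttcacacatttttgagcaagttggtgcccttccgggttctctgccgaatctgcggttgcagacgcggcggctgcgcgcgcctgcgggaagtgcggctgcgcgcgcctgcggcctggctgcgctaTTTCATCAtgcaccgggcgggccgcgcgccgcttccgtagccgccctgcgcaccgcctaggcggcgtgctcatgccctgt
Chac1: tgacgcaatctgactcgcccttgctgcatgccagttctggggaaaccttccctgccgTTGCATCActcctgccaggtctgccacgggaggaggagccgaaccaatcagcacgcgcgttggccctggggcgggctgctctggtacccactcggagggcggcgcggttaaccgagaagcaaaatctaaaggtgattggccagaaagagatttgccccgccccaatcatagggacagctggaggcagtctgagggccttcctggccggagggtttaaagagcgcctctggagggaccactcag
Trib3: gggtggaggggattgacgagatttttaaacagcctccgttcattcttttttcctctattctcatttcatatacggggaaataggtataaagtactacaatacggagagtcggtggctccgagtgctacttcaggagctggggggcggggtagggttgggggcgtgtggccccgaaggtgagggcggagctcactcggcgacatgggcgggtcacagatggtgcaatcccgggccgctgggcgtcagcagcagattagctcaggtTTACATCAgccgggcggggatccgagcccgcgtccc
Searched on both strands, the letters stood in 4 of the 7 called genes of the ATF4 list that have a window and in 4 of the 26 others. The 7 include Mthfd2, Sesn2 and Shmt2, whose windows held no match. The letters stood in 1304 of all 32851 windows, or 3.97%, and in 231 of 8385 tested genes with a window. These are matches of letters, not measured sites.

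Mthfd2, a mitochondrial enzyme of folate metabolism, was the member with a stable call. It had 3143, 2714 and 3186 in PGRN knockout M1, against 1855, 1584 and 1609 in WT M1. For M2 the levels were 1927, 1672 and 1876 in the knockout, against 2185, 2119 and 2182 in WT. The knockout is the higher group in M1 and the lower one in M2, without overlap in either. The rise in M1 was 0.84 ± 0.09 (adjusted p = 7.15e-05), and the difference was 1.09 ± 0.13 (adjusted p = 0.00361). The M2 effect of -0.25 ± 0.09 did not pass as reported (adjusted p = 0.0561) and passed under both other scalings (adjusted p = 0.0421 by library totals and 0.00749 by upper quartile), under which Mthfd2 moved in opposite directions in the 2 states.

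Slc7a5, the light chain of the large amino acid transporter, had 1025, 1098 and 1104 in PGRN knockout M1, against 812, 1002 and 881 in WT M1. In M2 there were 930, 952 and 1077 in the knockout, against 1448, 1812 and 1517 in WT. The larger gap is the one in M2, a fall of -0.69 ± 0.11 (adjusted p = 0.000772), and the difference was 0.95 ± 0.15 (adjusted p = 0.0167), called in 11 of the 12 fits without a library (adjusted p up to 0.0552). Chac1, which degrades glutathione, had 262, 296 and 235 in PGRN knockout M1, against 129, 228 and 143 in WT M1, and 136, 126 and 138 in PGRN knockout M2, against 202, 282 and 199 in WT M2. It rose by 0.70 ± 0.21 in M1 and its M2 effect was -0.75 ± 0.21, with a difference of 1.45 ± 0.29 (adjusted p = 0.0365; called in 2 of the 12 fits without a library, adjusted p up to 0.0992). Trib3, a pseudokinase induced by ATF4, had 902, 702 and 932 in PGRN knockout M1, against 664, 430 and 427 in WT M1, and 329, 281 and 334 in PGRN knockout M2, against 385, 521 and 432 in WT M2. Its difference of 1.25 ± 0.26 was called (adjusted p = 0.0397; in 2 of the 12 fits, adjusted p up to 0.12). Sesn2, an inhibitor of mTORC1, and Shmt2, a mitochondrial serine hydroxymethyltransferase, had differences of 0.62 ± 0.12 (adjusted p = 0.0337; 3 of the 12 fits, adjusted p up to 0.102) and 0.59 ± 0.12 (adjusted p = 0.0401; 1 of the 12 fits, adjusted p up to 0.122).

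The remaining 3 called members were synthetase genes, and a list of the 20 cytosolic aminoacyl-tRNA synthetases, added after values were seen, was described with them. All 20 had a difference above 0 as reported, and 18 did with scaling by library totals. The difference was called for 6, all positive, a share of 30%, against 0.642% positive calls over all genes tested. Aars, Gars and Wars among them were already counted in the ATF4 list, and the share of a list added in this way is no test. The 6 became 1 with library totals, 2 with the lower filter, with no filter or in thinned libraries, and 1 without WT M1 replicate 2 and WT M2 replicate 3 together; with 6 groups they became 9 and with the stromal covariate 10. With the knockout 10 rose and none fell in M1, while none rose and 6 fell in M2. The counts over all genes tested are those given for the ATF4 list. The 10 became 6 with library totals or without PGRN knockout M1 replicate 1 or 3, and 4 with the stromal covariate; the 6 became 3 without PGRN knockout M2 replicate 2 or 3 or WT M2 replicate 3. Aars, for alanine, had 9845, 8979 and 9947 in PGRN knockout M1, against 6261, 6616 and 6211 in WT M1, and 6158, 5436 and 6089 in PGRN knockout M2, against 5950, 6556 and 6339 in WT M2. Its difference was 0.68 ± 0.11 (adjusted p = 0.0171), called in 9 of the 12 fits without a library (adjusted p up to 0.0566). Wars was called in 6 of those fits, Mars in 3, and Gars, Tars and Yars in 1 each. Their differences lay between 0.40 (Tars) and 0.58 (Wars). The number of called synthetases was 0 without PGRN knockout M1 replicate 1 or 3 or PGRN knockout M2 replicate 3, and 10 without WT M1 replicate 1. It was 1 without PGRN knockout M2 replicate 1 or 2 or WT M2 replicate 2, 2 without WT M1 replicate 3 or WT M2 replicate 1 or 3, and 3 without PGRN knockout M1 replicate 2 or WT M1 replicate 2.

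Not all of the list moved this way. Hsp90b1 and Pdia6, which help proteins fold in the endoplasmic reticulum, fell in both states, and Pdia6 had effects of -0.68 ± 0.09 in M1 and -0.54 ± 0.09 in M2. Hsp90b1 had 14289, 14460 and 13876 in PGRN knockout M1, against 23023, 19261 and 20256 in WT M1. Its M2 levels were 18485, 17878 and 17744 in the knockout, against 22707, 21465 and 24480 in WT. It fell by 0.55 ± 0.08 on the log2 scale in M1 and by 0.34 ± 0.08 in M2, and the difference of -0.21 ± 0.12 did not pass (adjusted p = 0.469). Atf4 itself, chosen for its role after its values were seen, had 9552, 9933 and 9230 in PGRN knockout M1, against 11803, 7845 and 8004 in WT M1, and 6276, 5698 and 6264 in PGRN knockout M2, against 7417, 6444 and 7108 in WT M2. Its difference was 0.28 ± 0.19 (adjusted p = 0.568). Among 24 NRF2 and heme genes, a second stress program, 16 rose and 1 fell in M1 and 8 rose and 1 fell in M2, with a median difference of 0.25. Of all 11371 genes tested, 2493 rose in M1 and 2156 in M2. With the stromal covariate 10 of the 24 rose in M1. None was called in limma as reported or with voom weights, 7 had an unadjusted p under 0.05, and at most 2 were called in any alternative fit.

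Genes of DNA replication and mitosis fell with the knockout in M2. Of 40 genes, 27 fell and none rose in M2, where 1423 of all 11371 genes tested fell. In M1 6 fell and 1 rose, where 1580 of all genes tested fell. The median effect of the list was -0.56 in M2 and -0.09 in M1. All 40 had a difference above 0, with a median of 0.44, against 0.02 over all genes. Every member stayed above 0 with scaling by library totals or upper quartile, and 39 did in thinned libraries. The 6 that fell in M1 became 10 with library totals or the stromal covariate and 3 without PGRN knockout M1 replicate 1. The difference of single genes passed for 3, a share of 7.5%, against 0.642% positive calls over all genes tested. It passed for none with library totals, in thinned libraries, with the lower filter, with no filter or without WT M1 replicate 2 and WT M2 replicate 3 together, for 4 with upper quartile, 2 with voom weights, 1 with 6 groups and 5 with the stromal covariate. It passed in none of the 40 without PGRN knockout M1 replicate 1, 2 or 3, WT M1 replicate 2, PGRN knockout M2 replicate 2 or 3 or any WT M2 library; without WT M1 replicate 1 it passed for 11, without WT M1 replicate 3 for 2 and without PGRN knockout M2 replicate 1 for 1.

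Aurkb, a kinase of the chromosomal passenger complex, had 233, 234 and 219 in PGRN knockout M1, against 245, 213 and 229 in WT M1. In PGRN knockout M2 it had 617, 527 and 500, against 828, 868 and 878 in WT. The M1 libraries overlap and the M2 libraries do not. The fall in M2 was -0.65 ± 0.10 (adjusted p = 0.000645) and the difference 0.65 ± 0.14 (adjusted p = 0.0416; called in 2 of the 12 fits without a library, adjusted p up to 0.128). Ccnb1, the mitotic cyclin B1, and Tpx2, a spindle assembly factor, had differences of 0.71 ± 0.15 (adjusted p = 0.0416; 2 of the 12 fits, adjusted p up to 0.128) and 0.89 ± 0.20 (adjusted p = 0.0469; 1 of the 12 fits, adjusted p up to 0.136). Spdl1, which recruits dynein to kinetochores and was not on the list, had a stable call: it had 483, 416 and 395 in PGRN knockout M1, against 250, 219 and 259 in WT M1. The M2 libraries held 494, 396 and 405 in the knockout, against 526, 578 and 620 in WT. It rose by 0.83 ± 0.12 in M1 (adjusted p = 0.000468) and its M2 effect was -0.42 ± 0.12 (adjusted p = 0.0229), a difference of 1.24 ± 0.17 (adjusted p = 0.00768).

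**Figure D3:**
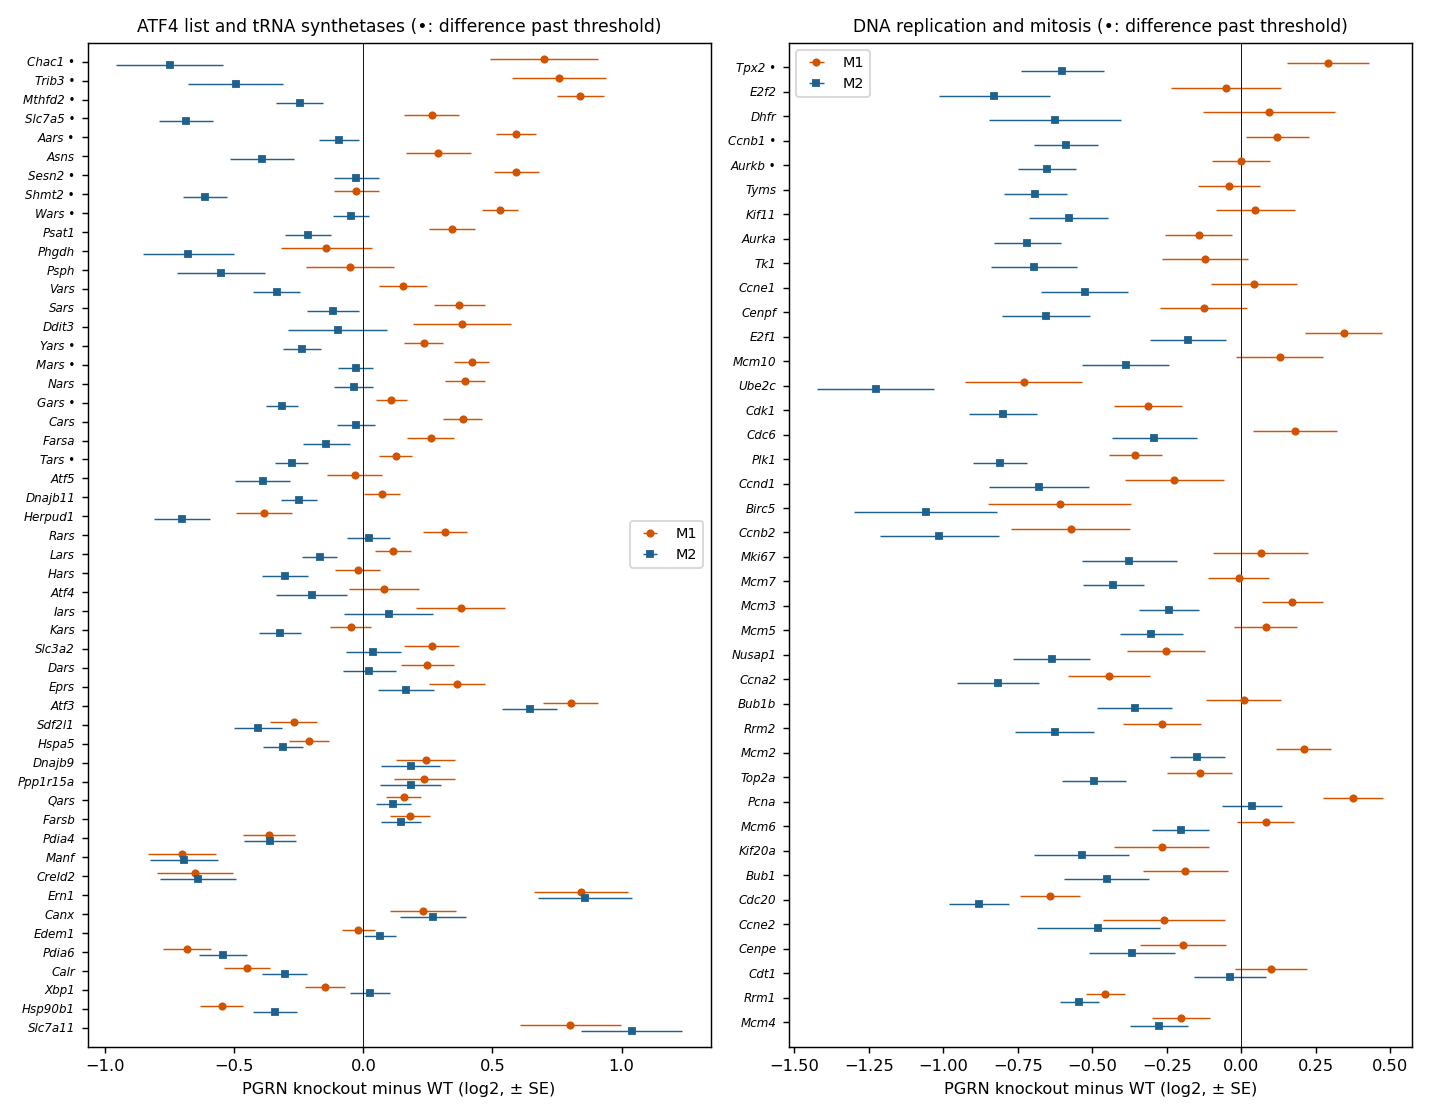
Log2 effect of the PGRN knockout in M1 (orange circles) and in M2 (blue squares) with its standard error (n = 3 libraries per group), for the ATF4 list with the cytosolic tRNA synthetases (left) and for DNA replication and mitosis (right); a dot beside the name marks a called difference. The standard error uses the spread pooled over the 4 groups, so it is the same in M1 and M2 although the groups differ in spread. The M1 points lie right of the M2 points for all 40 genes of the right panel, while in the left panel chaperones such as Hsp90b1 lie on the negative side in both states.

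Of the genes that define the 2 states, 1 of 21 tested M1 markers (4.76%) and 4 of 32 M2 markers (12.5%) had a called difference, against 1.74% over all genes tested. In the fits without a library these ran from 0 to 3 for the M1 markers, with 3 without WT M1 replicate 1, 1 without WT M2 replicate 2 and 0 in the others. For the M2 markers they were 0, 7 and 0 without PGRN knockout M1 replicates 1, 2 and 3, 6, 1 and 1 without those of WT M1, 0 without any of PGRN knockout M2, and 2, 0 and 1 without those of WT M2. The M1 marker was the costimulatory receptor gene Cd40, with 931, 939 and 868 in PGRN knockout M1, against 1307, 781 and 808 in WT M1, and 117, 161 and 133 in PGRN knockout M2, against 302, 331 and 351 in WT M2. Its fall in M2 was -1.26 ± 0.18, and the difference of 1.22 ± 0.26 (adjusted p = 0.0405) was called in 1 of the 12 fits without a library (adjusted p up to 0.117). Among the M2 markers the call was positive for Klf4 and negative for Egr2, Socs2 and Plxdc2, each in 2 to 4 of those fits. Klf4, a transcription factor of the IL-4 response, had 219, 182 and 187 in PGRN knockout M1, against 107, 177 and 137 in WT M1, and 877, 653 and 769 in PGRN knockout M2, against 1165, 1572 and 1474 in WT M2 (difference 1.37 ± 0.26, adjusted p = 0.0304, and up to 0.0894 without a library). Arg1, the arginase of IL-4-treated macrophages, was chosen for its role after its values were seen: it fell in both states, by 1.37 ± 0.35 on the log2 scale in M1 and by 1.29 ± 0.35 in M2, and the difference was -0.08 ± 0.50 (adjusted p = 0.967).

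Of 31 genes of the type I interferon response, 13 rose and none fell in M1, and 20 rose and 2 fell in M2. Over all 11371 genes tested, 2493 rose in M1 and 2156 in M2. The median difference of the list was -0.20, and 1 gene, the exonuclease gene Isg20, was called, with a positive difference of 0.99 ± 0.18 (adjusted p = 0.0249; 4 of the 12 fits without a library, adjusted p up to 0.0792). Without WT M1 replicate 1 the list had 3 negative calls and 1 positive one; it had 1 positive call without PGRN knockout M1 replicate 2, WT M1 replicate 2 or PGRN knockout M2 replicate 3, and none in the other 8 of these fits. It also had none with library totals, in thinned libraries or without WT M1 replicate 2 and WT M2 replicate 3 together, and 1 in each direction with 6 groups, voom weights or the stromal covariate. Among 33 NF-kB targets the kinase gene Ikbke was called, with a difference of -0.62 ± 0.12 (adjusted p = 0.0278; 4 of the 12 fits, adjusted p up to 0.0814). Among 29 genes of the interferon gamma response Socs3, a feedback inhibitor of cytokine receptors, was called: it had 4575, 5075 and 4470 in PGRN knockout M1, against 4887, 5505 and 5501 in WT M1, and 496, 567 and 546 in PGRN knockout M2, against 922, 1075 and 961 in WT M2. Its difference was 0.71 ± 0.12 (adjusted p = 0.0232; 6 of the 12 fits, adjusted p up to 0.0671). In the complement list of 19 genes Cfb, for factor B, was called, with a difference of 2.56 ± 0.51 (adjusted p = 0.0405; 3 of the 12 fits, adjusted p up to 0.114). In the order given, the single calls of these lists were shares of 3.23%, 3.03%, 3.45% and 5.26%. The share over all genes tested was 1.74%.

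**Figure D4:**
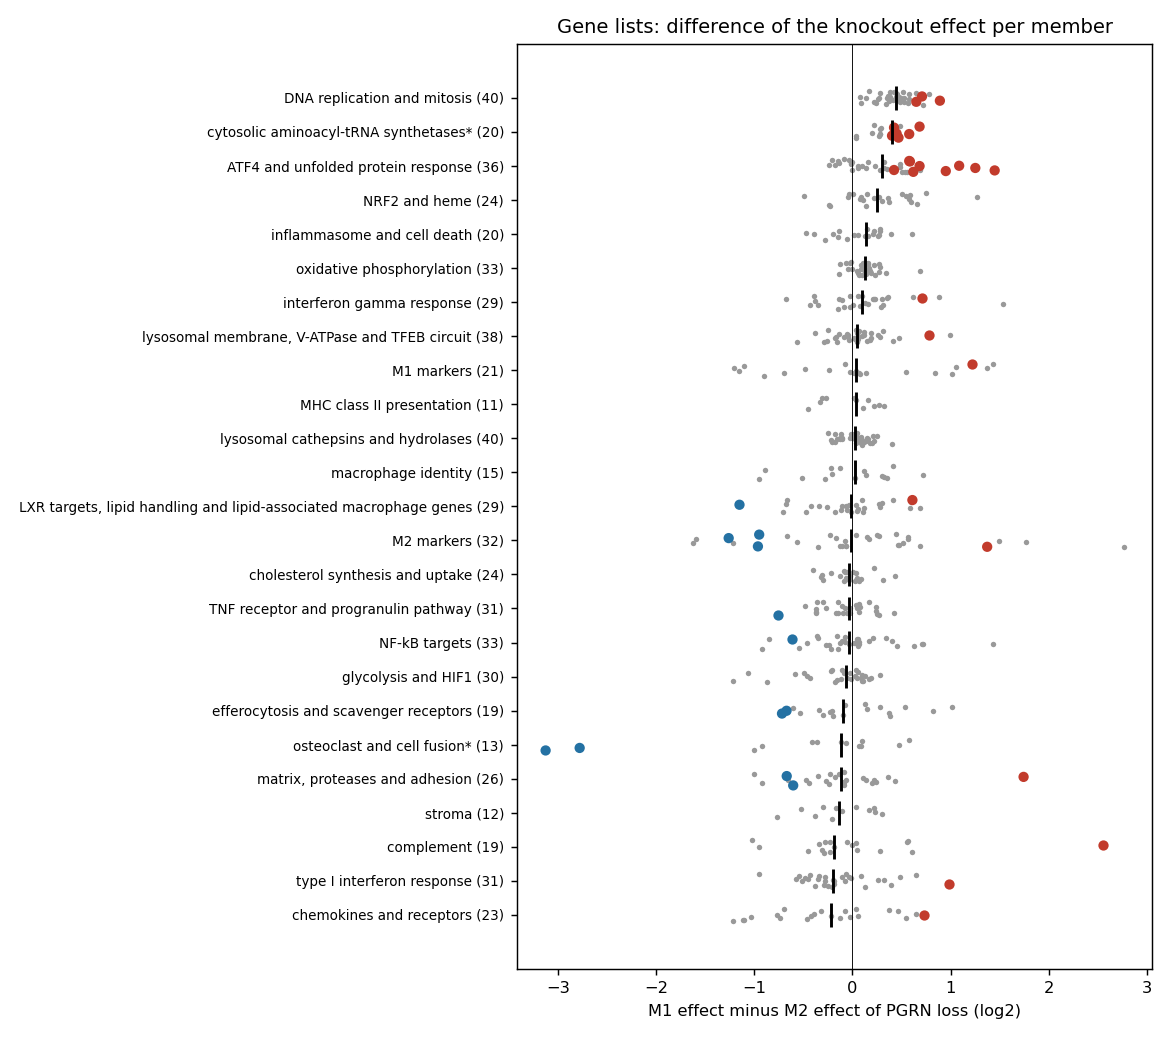
Log2 difference of the knockout effect, M1 minus M2, for each tested member of the lists with at least 10 tested members (number in brackets), with the median as a bar, called members as large red (positive) or blue (negative) points and the others grey; an asterisk marks lists added after values were seen, and Grn is not drawn. DNA replication and mitosis, the synthetases and the ATF4 list have the medians furthest above 0, at 0.44, 0.40 and 0.30.

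Across those 29 lists 602 members were tested and 32 had a called difference, a share of 5.32%, against 1.74% over all genes tested, and 15 of the lists had none. The 32 became 5, 25 and 3 without PGRN knockout M1 replicates 1, 2 and 3, 72, 16 and 15 without those of WT M1, 9, 7 and 6 without those of PGRN knockout M2, and 18, 8 and 10 without those of WT M2. Limma called no member of MHC class II presentation (11 tested), glycolysis and HIF1 (30), oxidative phosphorylation (33), inflammasome and cell death (20) and macrophage identity (15). At an unadjusted p under 0.05 their numbers were 0, 7, 3, 1 and 6, with voom weights 0, 1, 0, 1 and 2, and without WT M1 replicate 1, where they were highest, 0, 2, 1, 1 and 5. Of the 15 macrophage identity genes, 10 rose and 2 fell with the knockout in M1, and 7 rose and 0 fell in M2. Of all 11371 genes tested, 2493 rose in M1 and 2156 in M2. The 15 genes summed to 20395 to 23528 CPM in PGRN knockout M1 and 12897 to 20175 CPM in WT M1. In M2 the sums were 16555 to 18259 CPM in the knockout and 8643 to 9019 CPM in WT. Of 19 genes of efferocytosis and scavenger receptors, 2 were called, both negative: Pros1, for protein S, a bridge between dying cells and TAM receptors (4 of the 12 fits), and the integrin gene Itgb5 (9 of the 12 fits). Itgb5 had 7159, 7650 and 6927 in PGRN knockout M1, against 11487, 10896 and 9951 in WT M1, and 9958, 9548 and 9835 in PGRN knockout M2, against 9449, 8823 and 9102 in WT M2, with a difference of -0.67 ± 0.11 (adjusted p = 0.0167, and up to 0.0623 without a library). In the matrix list of 26 genes, with a share of 11.5% called, Tgfbi was called positive, in 5 of the 12 fits, and Timp2 and Mmp19 negative, in 1 and 3. Stromal cells express such genes too, the stromal markers were lower in the knockout in both states as given above, and their part in these calls was not tested.

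Among the other genes with a stable call, F7 and Arl4c had a positive difference. F7, the gene of coagulation factor VII, had 1481, 1507 and 1431 in PGRN knockout M1, against 522, 347 and 442 in WT M1. For M2 the levels were 1877, 2147 and 2057 in the knockout, against 1606, 1359 and 1762 in WT. In WT cells the M1 level was the lower by 1.86 ± 0.14 on the log2 scale, and in knockout cells by 0.46 ± 0.14. The rise with the knockout was 1.77 ± 0.14 in M1 (adjusted p = 9.4e-06), the M2 effect of 0.37 ± 0.14 did not pass (adjusted p = 0.0609), and the difference was 1.40 ± 0.19 (adjusted p = 0.00771). Arl4c, a small GTPase, had 855, 847 and 879 in PGRN knockout M1, against 638, 547 and 576 in WT M1. In M2 there were 2685, 2277 and 2494 in the knockout, against 3067, 3268 and 3497 in WT. It rose in M1 and fell in M2, and the difference was 0.95 ± 0.12 (adjusted p = 0.00512).

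The negative differences included genes of signalling and transcription that rose in knockout M2. Bhlhe40, a transcriptional repressor, had 800, 827 and 792 in PGRN knockout M1, against 923, 1008 and 927 in WT M1. Its M2 levels were 7275, 6635 and 7481 in the knockout, against 3512, 3766 and 4557 in WT. The rise in M2 was 0.86 ± 0.09 (adjusted p = 9.59e-05), and the difference was -1.10 ± 0.13 (adjusted p = 0.00414). The M1 effect of -0.24 ± 0.09 did not pass as reported (adjusted p = 0.0679) and passed under both other scalings (adjusted p = 0.00923 by library totals and 0.0225 by upper quartile), under which Bhlhe40 moved in opposite directions in the 2 states. Il6st, the shared receptor chain of the interleukin 6 family, had 2300, 2545 and 2452 in PGRN knockout M1, against 2408, 3227 and 2752 in WT M1. In PGRN knockout M2 it had 9816, 8709 and 9939, against 4847, 5429 and 5602 in WT. Its M1 libraries overlap, its M2 rise was 0.84 ± 0.11, and the difference was -1.03 ± 0.15 (adjusted p = 0.0109). Prkcb, a protein kinase C isoform of immune cells, had 788, 764 and 858 in PGRN knockout M1, against 611, 652 and 579 in WT M1. The M2 libraries held 970, 804 and 1045 in the knockout, against 278, 304 and 365 in WT. The M2 rise was 1.57 ± 0.12 and the difference -1.18 ± 0.17 (adjusted p = 0.01), while the M1 effect of 0.39 ± 0.12 lost its call under both other scalings (adjusted p = 0.0281 as reported, 0.0588 by library totals and 0.0503 by upper quartile).

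Pkdcc, a secreted tyrosine kinase, was high in 1 of the 4 groups: it had 403, 481 and 382 in PGRN knockout M1, against 486, 457 and 433 in WT M1. For M2 the levels were 1042, 967 and 1005 in the knockout, against 480, 449 and 461 in WT. The knockout M2 libraries stand alone, with a rise of 1.11 ± 0.09 in M2 (adjusted p = 2e-05) and a difference of -1.24 ± 0.13 (adjusted p = 0.00234). Anxa3, a phospholipid-binding annexin, had 1667, 1599 and 1790 in PGRN knockout M1, against 1815, 1835 and 1737 in WT M1. In M2 there were 7123, 6149 and 7093 in the knockout, against 3437, 2809 and 3672 in WT, a rise of 1.04 ± 0.10 and a difference of -1.14 ± 0.14 (adjusted p = 0.00512). Dlg3, a membrane scaffold protein, showed the mirror image of Pkdcc: it had 266, 321 and 273 in PGRN knockout M1, against 580, 630 and 530 in WT M1. Its M2 levels were 676, 650 and 719 in the knockout, against 643, 575 and 607 in WT. Here the knockout M1 libraries stand apart, with a fall of -1.01 ± 0.10 in M1 (adjusted p = 4.35e-05) and a difference of -1.18 ± 0.14 (adjusted p = 0.00376). Gramd4 had 276, 279 and 262 in PGRN knockout M1, against 392, 367 and 384 in WT M1, and 624, 634 and 656 in PGRN knockout M2, against 528, 520 and 494 in WT M2. Its difference was -0.79 ± 0.11 (adjusted p = 0.00687), with a fall in M1 and an M2 effect of 0.31 ± 0.08 whose call was lost under both other scalings (adjusted p = 0.00968 as reported, 0.0966 by library totals and 0.0569 by upper quartile).

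The libraries with the myeloid knockout of 14-3-3ε were compared with the same WT libraries, so the values of the 2 knockouts share their controls and are only set side by side. Gpr65 had 1295, 1376 and 1022 in 14-3-3ε knockout M1 and 1110, 1319 and 1162 in 14-3-3ε knockout M2. Its difference between states with that knockout was -0.34 ± 0.17 (adjusted p = 0.441 in a fit of 6 groups), beside 2.44 with the PGRN knockout. Fcgr4 had 5585, 5905 and 4425 in 14-3-3ε knockout M1 and 310, 227 and 170 in 14-3-3ε knockout M2, a difference of -0.67 ± 0.24 (adjusted p = 0.25) beside -1.86. Tarm1 had a difference of -2.06 ± 0.48 with the 14-3-3ε knockout (adjusted p = 0.0706) beside 1.98, Mthfd2 one of 0.41 ± 0.12 (adjusted p = 0.157) beside 1.09, and Slamf7 one of -0.93 ± 0.17 (adjusted p = 0.0209) beside -0.93. Of the 22 genes named by the rule, Slamf7 was the one with a called difference for that knockout.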

How the data were processed

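RNA of 18 libraries was measured by RNA-seq, and 12 libraries enter the comparison. Per the submitters' processing notes, the authors used STAR, RSEM 1.3.1 and DESeq2 and named the build GRCh38; the gene IDs are mouse IDs, and no coordinate of that build is printed. For 43309 genes the deposited values are log2 of 1 plus the authors' normalized count, and for 100% of genes they turn back into whole reads to within 0.1 of a read. Of the IDs, 42425 matched GENCODE M21 on GRCm38 for names. The sources used here do not say whether counting used strand.

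Genes with at least 5 CPM in at least 3 of the 12 libraries, 11371 in all, were tested on the deposited log2 values (pseudocount 1) with limma 3.58.1 in R 4.3.3, with trend and robust variance, in a single fit of the 4 groups with no further term (8 residual degrees of freedom), and adjusted by Benjamini-Hochberg with a threshold of 0.05. The CPM minimum was set because a read is worth up to 4.46 normalized counts in the shallowest library, and with 3 libraries in each of 4 groups their pooled spread is the spread of this contrast. The design had laid down a count test for raw counts; the file holds log2 values, so limma was used.

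Since nothing says that the libraries of a group are separate cultures or mice, p-values reflect the spread between these samples alone, which may be technical. Fold changes are on the log2(value + 1) scale, which understates changes of low genes. Members and lists were chosen with earlier results of these data known. Named are Grn and, among genes past the threshold that also pass with each library left out and have no predicted, clone or pseudogene name, the 8 largest positive and 8 largest negative differences, up to 6 genes for each pair of opposite directions, the 6 with the highest level and up to 4 members of each list. The 29 lists cover the programs named in the report and 9 kinds of cell; 5 more were added after values were seen. Genes named with the number of fits they passed, and Atf4, Arg1, Ctsd, Hsp90b1 and Pdia6, were chosen after their values were seen.

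Alternatives were a pseudocount of 0.1, a minimum of 1 normalized count (20241 genes), no filter (25395 genes), 6 groups, only the 2 groups compared, a replicate block, libraries thinned to 5.16 M reads, voom weights on recovered reads, scaling by library totals or by upper quartile, leaving out WT M1 replicate 2 with WT M2 replicate 3, whose share of ribosomal RNA-like reads was high, and each library left out in turn. A covariate from the stromal markers was added after the data were seen, and it overlaps with genotype in these libraries. The fit was tested on simulated data. Tables used pandas 2.3.3 and numpy 2.4.6 in Python 3.11.15, figures matplotlib 3.10.9, and random steps used seed 1.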

Additional observations from a re-analysis of the deposited data

Results flagged for a closer look

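The knockout effect differed between M1 and M2, by the test of the difference itself in limma, for 198 genes. Among the genes named by the rule the log2 difference was positive for Gpr65 (2.44), Tarm1 (1.98), Grn (1.90), F7 (1.40), Cst7 (1.28), Spdl1 (1.24), Tfec (1.13), Mthfd2 (1.09), Arl4c (0.95) and Sqstm1 (0.78). It was negative for Dcstamp (-3.13), Fcgr4 (-1.86), Pkdcc (-1.24), Prkcb (-1.18), Dlg3 (-1.18), Cd9 (-1.15), Anxa3 (-1.14), Bhlhe40 (-1.10), Ms4a7 (-1.08), Il6st (-1.03), Slamf7 (-0.93) and Gramd4 (-0.79). All but Grn were chosen among the genes that also pass in every fit without 1 library, so that passing those fits is no further result.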

How the results depend on the processing

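Of the 21 genes named beside Grn, which were chosen for passing without each library, 20 kept direction and call under the other 11 alternatives, and Tfec lost its call in thinned libraries; Grn kept its direction and lost its call under 4 of the 11. The 198 called differences became 94 with the lower filter, 86 with no filter, 342 with 6 groups, 71 in thinned libraries, 276 with voom weights, 114 with library totals, 212 with upper quartile, 63 without WT M1 replicate 2 and WT M2 replicate 3 (the ribosomal RNA-like reads) and 358 with the stromal covariate, which was chosen after seeing the data and kept 197 of the 198. The 33 genes with opposite directions became 20, 19, 55, 16, 58, 23, 42, 18 and 9 in the same order, and the 32 list members 15, 12, 43, 11, 37, 13, 35, 9 and 53. The cause was not tested. Positive calls were 30 of 114 with library totals and 114 of 212 with upper quartile, against 73 of 198; upper quartile moved the median M2 effect of all genes to -0.07, against 0.04. None of the 198 genes changed sign under these alternatives. A fit of only the 2 groups called 2403 genes in M1 and 4904 in M2, against 4073 and 3579. With 1 library left out, the calls ranged from 32 to 551 for the difference, from 7 to 87 for opposite directions, from 3 to 72 for list members, from 2636 to 4798 for the M1 effect and from 2251 to 5193 for the M2 effect. The replicate number as a block gave 262 calls for the difference, 44 opposite and 39 list members, but the samples share only a number: of 18 same-numbered pairs the correlation of deviations ran from -0.37 to 0.40 and exceeded 0.1 in 5. Depth was lowest in WT M1, at 5.16 to 14.5 M reads; which group's depth limits the comparison most was not tested.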

Other observations

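Of the genes outside the rule, chosen after their values were seen, Gde1, a phosphodiesterase of lipid metabolism, had 3370, 3314 and 3319 normalized counts in PGRN knockout M1, against 1703, 1441 and 1545 in WT M1, and 1074, 1113 and 1079 in PGRN knockout M2, against 933, 925 and 888 in WT M2. Its difference of 0.85 ± 0.10 (limma adjusted p = 0.00361) is one of the 26 that passed without each library. Arid3a, a DNA-binding protein, rose in both states and more in M2: it had 917, 859 and 931 in PGRN knockout M1, against 513, 538 and 546 in WT M1, and 1106, 932 and 1108 in PGRN knockout M2, against 330, 299 and 350 in WT M2 (difference -0.92 ± 0.13, adjusted p = 0.00841). Gpd1, a glycerol-3-phosphate dehydrogenase, was near its low WT level in M1 and high in knockout M2: it had 45, 27.4 and 29.3 in PGRN knockout M1, against 31.2, 24 and 39.6 in WT M1, and 524, 519 and 343 in PGRN knockout M2, against 97.1, 85.9 and 74.2 in WT M2. Its difference of -2.31 ± 0.37 was called (adjusted p = 0.0173) in 9 of the 12 fits without a library.

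The predicted pseudogene Gm10182 (GRCm38, chromosome 9, 22321105 to 22321377) had 775, 560 and 554 in PGRN knockout M1 and no read in the 3 WT M1 libraries. With 3 reads put in each WT M1 library it was at least 69.9-fold higher in the knockout, a bound that covers counting error alone. In M2 it had 1230, 714 and 746 in the knockout, against 23.9, 44.8 and 47.4 in WT. Reads of a pseudogene can be shared with its near-identical copies.

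Markers of other cells were low beside the stromal ones. In M1 the highest of these sums were those of the 10 dendritic cell markers. They were 1688 to 1954 CPM in PGRN knockout M1 and 1917 to 3907 CPM in WT M1, with 3907 CPM in replicate 1. In M2 they were 147 to 169 CPM in the knockout and 153 to 209 CPM in WT. The 13 T and NK cell markers summed to 35.4 to 44.4 CPM in PGRN knockout M1 and 14.7 to 23.5 CPM in WT M1, and to 120 to 151 CPM in PGRN knockout M2 and 38.8 to 55.5 CPM in WT M2. The 10 B and plasma cell markers summed to 39.4 to 123 CPM in PGRN knockout M1 and 168 to 293 CPM in WT M1, and to 44.6 to 124 CPM in PGRN knockout M2 and 110 to 262 CPM in WT M2. The 12 neutrophil markers summed to at most 317 CPM in PGRN knockout M1, 454 CPM in WT M1, 261 CPM in PGRN knockout M2 and 463 CPM in WT M2. Enough reads to be tested were found for 2 dendritic cell, 1 T and NK cell, 3 B and plasma cell and 8 neutrophil markers. The T and NK cell marker tested rose by 2.13 in M1 and by 1.68 in M2 on the log2 scale. Sums carried by so few markers are not measures of cell numbers. Of the tested members of the other cell lists, limma called no difference as reported or in the fits without a library, and 1 had an unadjusted p under 0.05; 1 neutrophil marker was called in a fit of 6 groups.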
